A study of Homo sapiens with 20 samples.

Results

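The genes described here encode the proteasome, its assembly factors and its regulators. They were chosen by symbol: every gene whose name starts with PSMA, PSMB, PSMC, PSMD, PSME, PSMF or PSMG followed by a digit, plus POMP, which gave 48 of the 18417 genes measured with a single symbol. The rule reads symbols and no expression value, but the family was chosen with earlier results of these data known. The study's own analysis of these arrays places the proteasome among the top upregulated pathways shared by its treatments. PSMC3IP and PSME3IP1 match the rule by name, although they encode partner proteins and no part of the proteasome, and each count below holds for the 48 genes with them. PSMC5, PSMD7 and PSMD13 were not analysed here.

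Total RNA of MDA-MB-231 cells, an established line of basal-type, triple-negative breast cancer, was hybridised to 20 Affymetrix Human Gene 1.0 ST arrays. Cells were treated with cisplatin, a platinum drug that crosslinks DNA, with TM (ammonium tetrathiomolybdate, a copper chelator) or with both, and the study asked how the combination differs from each drug. Groups were Cis/TM 24 h (3 arrays), Cis/TM 12 h (3), Cis 24 h (3), Cis 12 h (3), TM 24 h (3), TM 12 h (2) and Control (3). Control cells received vehicle according to the study's methods, and their labels give no time. The same 3 Control arrays served both times. Every group shares the 1 cell line, and each drug was given at 1 dose. The methods describe triplicate wells of 6-well plates and nothing states that wells were separate cultures or days, so p-values measure the spread between these arrays, which may be technical. Each array measured a pool of cells, so a change in the share of cells with a transcript and a change in its level per cell cannot be told apart.

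The proteasome is the cell's main protease for proteins marked with ubiquitin. A barrel-shaped core, with outer rings of alpha subunits (PSMA genes) and inner rings of beta subunits (PSMB genes), holds the active sites, and a cap of ATPases (PSMC genes) and other subunits (PSMD genes) recognises, unfolds and feeds in the substrate. Cells that are short of proteasome activity raise the subunit genes together through the transcription factor NFE2L1, and interferons replace the catalytic subunits PSMB5, PSMB6 and PSMB7 with PSMB8, PSMB9 and PSMB10, which favour peptides for antigen presentation.

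Values are log2 RMA levels (a background-corrected, quantile-normalised summary of a gene's probes), and a difference of 1 on this scale is a doubling. A gene is said to rise or fall where limma's moderated test gave a Benjamini-Hochberg adjusted p under 0.05 over all 18417 genes and the fold change was over 1.5. Array medians ran between 5.71 and 5.94, and correlations between arrays of a group were 0.983 to 0.997. Centring each array on its median lowered the median change of all genes by more than 0.1 in 2 comparisons with Control, to -0.157 at Cis/TM 12 h and -0.158 at Cis 12 h, against -0.046 and -0.006 without centring. With centring, 11% of all genes were raised and 16.7% lowered at Cis 12 h, against 14.8% and 10.8% without it, and the members' counts under centring are given beside the main ones. Fold changes also grew with a gene's level in all comparisons with Control (Spearman's rho over all genes 0.23 to 0.50), and 39 of the 48 members lie in the upper 25% of genes by mean level. Within the 48 members, rho between the change and the level in Control was negative, from -0.37 at Cis 12 h to -0.08 at Cis/TM 24 h. The Control level is also subtracted in the change, so noise in Control pulls this rho down. The rho over all genes used the mean level of all arrays, so the signs of these rho values cannot be compared. The part of level in differences between members was not tested. Markers fitted the line, with VIM, CD44, CAV1 and MSN at 10.44 to 11.84 and ESR1, PGR, CDH1, PTPRC and PECAM1 at 2.86 to 4.83 on every array, while GATA3, named as low for this line, was at 5.13 to 6.44.

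All 6 treatment groups raised members of the proteasome, most often at 12 h with cisplatin. Against the same 3 Control arrays, 7 of 48 members rose at Cis/TM 24 h, 22 at Cis/TM 12 h, 15 at Cis 24 h, 19 at Cis 12 h, 8 at TM 24 h and 17 at TM 12 h. The share of all genes that rose was 4.54% at Cis/TM 24 h, 15.2% at Cis/TM 12 h, 11.5% at Cis 24 h, 14.8% at Cis 12 h, 5.16% at TM 24 h and 8.99% at TM 12 h. Among genes in the upper 25% by level the shares were 7.6%, 25.4%, 19.1%, 23.6%, 9.25% and 16.2% in the same order, and the members' own shares were 14.6%, 45.8%, 31.2%, 39.6%, 16.7% and 35.4%. Falls were few, with 0 members at Cis/TM 24 h, 1 at Cis/TM 12 h, 0 at Cis 24 h, 1 at Cis 12 h, 1 at TM 24 h and 0 at TM 12 h. Of all genes, 2.48% fell at Cis/TM 24 h, 8.55% at Cis/TM 12 h, 4.9% at Cis 24 h, 10.8% at Cis 12 h, 2.55% at TM 24 h and 3.11% at TM 12 h. By limma, an unadjusted p under 0.05 in either direction was met by 34 members at Cis/TM 24 h, 37 at Cis 24 h and 35 at TM 12 h, the comparisons with no fall. The share of all genes at that unadjusted p was not counted, here or for the counts of this kind below. Such counts therefore cannot be read against all genes.

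The median change of the members was 0.28 at Cis/TM 24 h, 0.55 at Cis/TM 12 h, 0.41 at Cis 24 h, 0.41 at Cis 12 h, 0.29 at TM 24 h and 0.38 at TM 12 h, against medians of all genes between -0.05 and 0.00. With the trend of change against level removed, 5 members rose at Cis/TM 24 h, 17 at Cis/TM 12 h, 14 at Cis 24 h, 18 at Cis 12 h, 5 at TM 24 h and 11 at TM 12 h, when 2.8%, 10.7%, 6.3%, 11%, 2.87% and 5.43% of all genes did. With each array centred on its median, 7, 17, 14, 17, 5 and 15 members rose in that order, when 4.04%, 12.3%, 8.73%, 11%, 3.58% and 7.43% of all genes did. Without the 2 partner proteins the counts were 6, 20, 14, 18, 7 and 16. In total 25 members rose in at least 1 comparison, 2 fell in at least 1, and 21 did neither in any. Of all 18417 genes, 3847 rose in at least 1, 2590 fell in at least 1 and 12102 did neither in any. The map of fold changes shows that the rises fell on beta subunits, on some of the cap subunits and on PSMG3, and left most of the alpha ring pale.

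**Figure D1:**
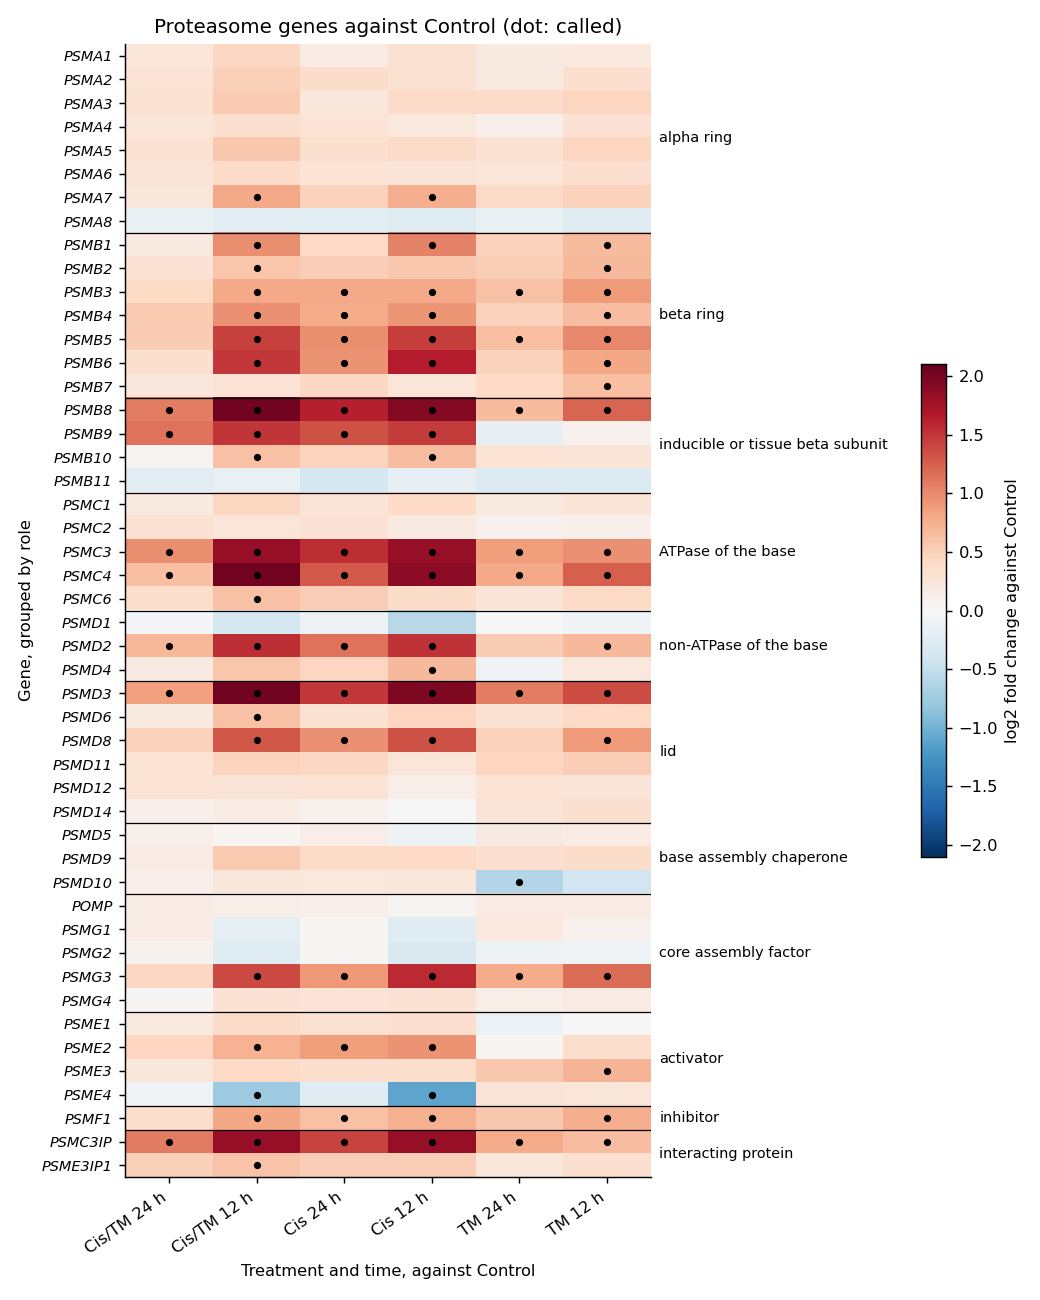
Log2 fold change of each of the 48 members (rows, grouped by role) in each treatment group against Control (columns); red is higher and blue lower than Control, and a dot marks adjusted p under 0.05 with a fold change over 1.5. Of the 8 alpha ring genes only PSMA7 carries dots, while all 7 beta ring genes carry at least 1.

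The alpha ring forms the gate of the core, and few of its genes passed the fold threshold. Of 8 members, 0 rose at Cis/TM 24 h, 1 at Cis/TM 12 h, 0 at Cis 24 h, 1 at Cis 12 h, 0 at TM 24 h and 0 at TM 12 h, and the gene that rose was PSMA7 (0.79 at Cis/TM 12 h and 0.77 at Cis 12 h). At Cis/TM 12 h and Cis 12 h, 15.2% and 14.8% of all genes rose. The median change of the ring there was 0.46 and 0.33, against -0.05 and -0.01 for all genes. PSMA1 to PSMA6 lay between 0.26 and 0.56 in the Cis/TM comparisons, between 0.17 and 0.40 in the Cis comparisons and between 0.11 and 0.45 in the TM comparisons. PSMA8, a testis-specific alternative to PSMA7, had a mean level of 3.06 over the 20 arrays, in the lowest 2.1% of genes, where expression cannot be told from background.

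The beta ring holds the active sites, and its genes rose more often. Of 7 members, 0 rose at Cis/TM 24 h, 6 at Cis/TM 12 h, 4 at Cis 24 h, 5 at Cis 12 h, 2 at TM 24 h and 7 at TM 12 h. Of all genes, 4.54%, 15.2%, 11.5%, 14.8%, 5.16% and 8.99% rose in the same order. PSMB5 carries the chymotrypsin-like site, the main target of proteasome inhibitor drugs. It had levels of 9.29, 9.28 and 9.12 at Cis/TM 24 h, 10.12, 10.08 and 10.16 at Cis/TM 12 h, 9.73, 9.65 and 9.59 at Cis 24 h and 10.01, 10.35 and 10.07 at Cis 12 h. The TM arrays gave 9.35, 9.27 and 9.35 at 24 h and 9.69 and 9.69 at 12 h, against 8.87, 8.79 and 8.40 in Control. Every treated array was above every Control array, and the cisplatin arrays at 12 h were the highest. The log2 change of PSMB5 was 0.54 at Cis/TM 24 h, short of the fold threshold, 1.43 at Cis/TM 12 h (SE 0.11), 0.97 at Cis 24 h, 1.46 at Cis 12 h (adjusted p = 5.13e-09 by limma), 0.64 at TM 24 h and 1.01 at TM 12 h. The rise at TM 24 h was 0.49 without Control C and 0.56 with each array centred, both under the fold threshold.

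PSMB6 carries the caspase-like site. Its levels were 9.09, 8.85 and 8.57 at Cis/TM 24 h, 10.12, 9.94 and 9.91 at Cis/TM 12 h, 9.55, 9.47 and 9.32 at Cis 24 h and 10.11, 10.31 and 10.01 at Cis 12 h. With TM they were 8.99, 8.85 and 9.11 at 24 h and 9.38 and 9.26 at 12 h, against 8.61, 8.75 and 8.14 in Control. The cisplatin arrays at 12 h stood apart at the top, and the Cis/TM 24 h arrays overlapped Control. PSMB6 rose by 1.49 at Cis/TM 12 h, 0.95 at Cis 24 h, 1.64 at Cis 12 h (adjusted p = 2.6e-08 by limma) and 0.82 at TM 12 h.

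PSMB7, with the trypsin-like site, followed another order. It had 11.37, 11.26 and 11.14 at Cis/TM 24 h, 11.26, 11.31 and 11.33 at Cis/TM 12 h, 11.52, 11.49 and 11.34 at Cis 24 h and 11.24, 11.38 and 11.20 at Cis 12 h. The TM values were 11.40, 11.44 and 11.47 at 24 h and 11.70 and 11.61 at 12 h, against 11.07, 11.13 and 10.85 in Control. The TM 12 h arrays were the highest of all 20, and TM 12 h was the group in which PSMB7 rose (0.64, adjusted p = 0.000268). That rise was 0.56 without Control C, under the fold threshold, and it missed the threshold with each array centred (0.58). The structural subunits PSMB1, PSMB2, PSMB3 and PSMB4 rose by 0.59 to 0.98 at Cis/TM 12 h and by 0.65 to 0.89 at TM 12 h, and 3 of them rose elsewhere too. PSMB1 rose at Cis 12 h (1.03), PSMB4 at Cis 24 h (0.78) and Cis 12 h (0.93), and PSMB3 at Cis 24 h (0.80), Cis 12 h (0.79) and TM 24 h (0.61). Calls among these 4 genes that were lost when certain single arrays were left out were PSMB1 at TM 12 h (0.57 without TM 12 h B), PSMB2 at Cis/TM 12 h (0.51 without Cis/TM 12 h A, 0.57 without Control A and 0.56 without Control C) and PSMB3 at TM 24 h (0.55 without TM 24 h C and 0.58 without Control B or C). With each array centred, PSMB2 at Cis/TM 12 h (0.48) and PSMB3 at TM 24 h (0.54) also missed the threshold.

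**Figure D2:**
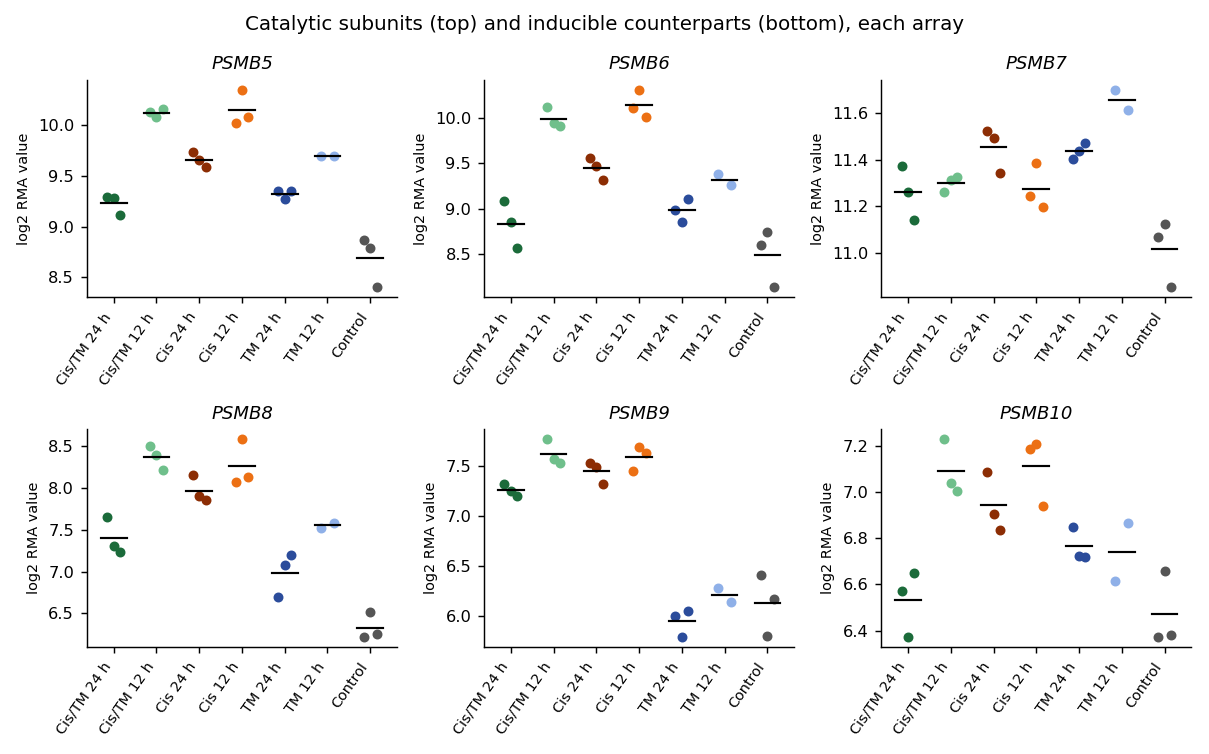
Log2 RMA value of each array (points) and group mean (lines) for the catalytic subunits PSMB5, PSMB6 and PSMB7 (top row) and their inducible counterparts PSMB8, PSMB9 and PSMB10 (bottom row); vertical axes differ and do not start at 0. PSMB9 sits between 7.20 and 7.77 in all arrays with cisplatin and between 5.78 and 6.41 in the TM and Control arrays, while PSMB8 is above Control in every treated array.

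Of the inducible subunits, PSMB8 rose in all 6 treatment groups, PSMB9 in the 4 groups with cisplatin and PSMB10 in the cisplatin groups at 12 h. PSMB8, the inducible counterpart of PSMB5, had 7.66, 7.31 and 7.23 at Cis/TM 24 h, 8.50, 8.39 and 8.21 at Cis/TM 12 h, 8.15, 7.90 and 7.85 at Cis 24 h and 8.07, 8.58 and 8.13 at Cis 12 h. TM arrays had 6.70, 7.07 and 7.19 at 24 h and 7.52 and 7.58 at 12 h, against 6.22, 6.52 and 6.26 in Control. No treated array overlapped Control, and the TM 24 h arrays lay nearest to it. PSMB8 rose in every treatment group, by 1.07 at Cis/TM 24 h, 2.03 at Cis/TM 12 h (4.09-fold, adjusted p = 4.84e-09), 1.63 at Cis 24 h, 1.93 at Cis 12 h, 0.66 at TM 24 h and 1.22 at TM 12 h. The rise at TM 24 h was 0.56 without TM 24 h C and 0.58 with each array centred, both short of the fold threshold.

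PSMB9, the inducible counterpart of PSMB6, had 7.33, 7.25 and 7.20 at Cis/TM 24 h, 7.77, 7.57 and 7.53 at Cis/TM 12 h, 7.54, 7.49 and 7.33 at Cis 24 h and 7.45, 7.69 and 7.63 at Cis 12 h. Its TM values were 6.00, 5.78 and 6.05 at 24 h and 6.28 and 6.14 at 12 h, against 6.41, 5.79 and 6.16 in Control. All 12 arrays with cisplatin were above all 8 without it, and the TM arrays lay within or at the edge of the Control range. Changes were 1.14 at Cis/TM 24 h, 1.5 at Cis/TM 12 h, 1.33 at Cis 24 h and 1.47 at Cis 12 h, each past the threshold, and -0.18 at TM 24 h (95% interval -0.45 to 0.09) and 0.08 at TM 12 h (-0.22 to 0.39). The difference between Cis/TM and TM was itself past the threshold, at 1.32 at 24 h (adjusted p = 1.61e-06) and 1.42 at 12 h (5.4e-07).

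PSMB10, the inducible counterpart of PSMB7, had 6.57, 6.37 and 6.65 at Cis/TM 24 h, 7.23, 7.04 and 7.0 at Cis/TM 12 h, 7.09, 6.91 and 6.84 at Cis 24 h and 7.19, 7.21 and 6.94 at Cis 12 h. With TM it had 6.85, 6.72 and 6.72 at 24 h and 6.61 and 6.87 at 12 h, against 6.37, 6.66 and 6.38 in Control. It rose at Cis/TM 12 h (0.62) and Cis 12 h (0.64), while the Cis/TM 24 h arrays overlapped Control. Both calls were lost with each array centred on its median (0.51 and 0.49), and the Cis/TM 12 h value was 0.55 without Cis/TM 12 h A, 0.57 without Control A and 0.57 without Control C. PSMB11, the thymus-specific subunit, had a mean level of 3.56 and passed no test. PSMB8 and PSMB9 are each listed by 3 transcript clusters with the same values, and 1 of each was used.

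PSMB9 shares a stretch of chromosome 6 with TAP1, which encodes a subunit of the peptide transporter for antigen presentation and is read from the opposite strand. TAP1 changed by 0.82 at Cis/TM 24 h, 1.38 at Cis/TM 12 h, 1.26 at Cis 24 h and 1.38 at Cis 12 h, all past the threshold, and by -0.09 at TM 24 h and 0.19 at TM 12 h, below it. The start sites in RefSeq are 488 bases apart (GRCh38.p14). The 250 bases before each start are printed 5′ to 3′ on the strand of the gene, with those of PSMB8 beside them because it also rose with TM. They are chr6:32853942-32854191 on the plus strand for PSMB9, chr6:32853705-32853954 on the minus strand for TAP1 and chr6:32844680-32844929 on the minus strand for PSMB8. Capitals mark matches to the interferon-stimulated response element (GAAANNGAAA) and to the kappa-B motif, both searched on both strands and chosen after the values were seen.
PSMB9: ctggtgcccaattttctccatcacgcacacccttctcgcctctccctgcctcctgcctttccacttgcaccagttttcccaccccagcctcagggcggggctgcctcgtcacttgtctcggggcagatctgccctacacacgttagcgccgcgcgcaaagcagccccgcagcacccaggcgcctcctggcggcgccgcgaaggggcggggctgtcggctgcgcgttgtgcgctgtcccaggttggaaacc
TAP1: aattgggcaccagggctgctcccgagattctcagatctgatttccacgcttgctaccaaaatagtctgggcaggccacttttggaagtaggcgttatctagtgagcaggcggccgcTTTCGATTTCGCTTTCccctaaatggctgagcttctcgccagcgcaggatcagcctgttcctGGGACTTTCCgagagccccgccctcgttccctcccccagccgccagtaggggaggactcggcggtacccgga
PSMB8: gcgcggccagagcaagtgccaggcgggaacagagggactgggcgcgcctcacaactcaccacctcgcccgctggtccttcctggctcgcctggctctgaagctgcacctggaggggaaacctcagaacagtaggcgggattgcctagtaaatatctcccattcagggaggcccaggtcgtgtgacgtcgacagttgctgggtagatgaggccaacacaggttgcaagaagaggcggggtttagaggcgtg

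The TAP1 side holds 2 overlapping matches to the response element, at bases -134 to -125 and -128 to -119 from its start, and a kappa-B match at -72 to -63. The windows of PSMB9 and PSMB8 hold neither motif. Promoter windows of RefSeq were found for 42 of the 48 members, without PSMA7, PSMB1, PSMB6, PSMB7, PSMD4 and PSMG3. The response element stood in 6 of the 42 (14.3%) and in 3.66% of the 27305 windows of all genes, and the kappa-B motif in 1 (2.38%) and in 10.8%.

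The ATPases form the motor at the base of the cap. Of the 5 measured, PSMC3 and PSMC4 rose in all 6 comparisons with Control, PSMC6 rose at Cis/TM 12 h (0.62) and PSMC1 and PSMC2 in none. PSMC4 had levels of 8.85, 8.70 and 8.52 at Cis/TM 24 h, 10.28, 9.93 and 10.06 at Cis/TM 12 h, 9.55, 9.30 and 9.19 at Cis 24 h and 9.61, 10.33 and 9.87 at Cis 12 h. The TM arrays had 8.81, 8.76 and 9.0 at 24 h and 9.32 and 9.30 at 12 h, against 7.97, 8.27 and 7.95 in Control. Treated arrays all lay above Control, and the Cis/TM 24 h arrays overlapped the TM 24 h arrays. PSMC4 rose by 0.63 at Cis/TM 24 h, 2.03 at Cis/TM 12 h (4.08-fold, SE 0.16, adjusted p = 5.69e-09), 1.28 at Cis 24 h, 1.87 at Cis 12 h, 0.79 at TM 24 h and 1.25 at TM 12 h. The value at Cis/TM 24 h fell under the fold threshold without Cis/TM 24 h A (0.55), Control A (0.58) or Control C (0.57).

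PSMC3 had 9.66, 9.36 and 9.38 at Cis/TM 24 h, 10.45, 10.19 and 10.35 at Cis/TM 12 h, 10.19, 10.03 and 9.93 at Cis 24 h and 10.21, 10.48 and 10.27 at Cis 12 h. TM gave 9.21, 9.28 and 9.60 at 24 h and 9.49 and 9.42 at 12 h, against 8.47, 8.67 and 8.35 in Control. All treated arrays exceeded Control, and the TM arrays of both times and Cis/TM 24 h occupied 1 common range. The rises were 0.97 at Cis/TM 24 h, 1.83 at Cis/TM 12 h, 1.56 at Cis 24 h, 1.83 at Cis 12 h, 0.87 at TM 24 h and 0.96 at TM 12 h. PSMC1 and PSMC6 are each listed by 2 transcript clusters with the same accessions, so their signal cannot be assigned to 1 gene copy, and PSMC6 at Cis/TM 12 h was 0.54 without Cis/TM 12 h B and 0.51 with each array centred.

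PSMC3IP, which binds PSMC3 and serves homologous recombination, had 9.60, 9.40 and 9.41 at Cis/TM 24 h, 10.19, 10.13 and 10.27 at Cis/TM 12 h, 9.77, 9.79 and 9.80 at Cis 24 h and 10.06, 10.24 and 10.27 at Cis 12 h. In the TM groups it had 8.97, 9.15 and 9.33 at 24 h and 8.96 and 9.06 at 12 h, against 8.22, 8.45 and 8.44 in Control. The arrays of Cis/TM 24 h, Cis 24 h and the cisplatin groups at 12 h formed steps that did not overlap each other, TM or Control. It rose by 1.10 at Cis/TM 24 h, 1.83 at Cis/TM 12 h (adjusted p = 1.74e-10), 1.42 at Cis 24 h, 1.82 at Cis 12 h, 0.78 at TM 24 h and 0.64 at TM 12 h, the last being 0.56 without Control A and 0.58 with each array centred. The other partner protein, PSME3IP1, rose at Cis/TM 12 h (0.61, and 0.58 without Cis/TM 12 h A or C, 0.56 without Control A and 0.50 with each array centred).

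The rest of the base holds the scaffold PSMD1, the scaffold PSMD2 and the ubiquitin receptor PSMD4. PSMD2 rose at Cis/TM 24 h (0.70), Cis/TM 12 h (1.55), Cis 24 h (1.14), Cis 12 h (1.52) and TM 12 h (0.67, and 0.56 without Control C), and was 0.53 at TM 24 h. PSMD4 rose at Cis 12 h (0.68), a call that was lost with each array centred on its median (0.53). PSMD1 had -0.38 at Cis/TM 12 h and -0.58 at Cis 12 h, inside the fold threshold, and -0.10 to 0.01 in the other comparisons with Control. The 2 scaffolds thus stood on opposite sides of 0 in the cisplatin groups at 12 h.

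The lid removes ubiquitin from substrates, and of its 6 measured members PSMD3 moved most. It had 8.55, 8.29 and 8.30 at Cis/TM 24 h, 9.68, 9.43 and 9.52 at Cis/TM 12 h, 9.19, 9.0 and 8.82 at Cis 24 h and 9.35, 9.69 and 9.36 at Cis 12 h. TM arrays had 8.50, 8.59 and 8.66 at 24 h and 8.88 and 8.90 at 12 h, against 7.50, 7.85 and 7.19 in Control. No treated array reached down to Control, and the 6 cisplatin arrays of 12 h were above all others. The rises were 0.87 at Cis/TM 24 h, 2.03 at Cis/TM 12 h (4.08-fold, adjusted p = 2.2e-09), 1.49 at Cis 24 h, 1.95 at Cis 12 h, 1.07 at TM 24 h and 1.38 at TM 12 h, and none of these calls depended on a single array or on the scaling. PSMD8 rose at Cis/TM 12 h (1.30), Cis 24 h (0.95), Cis 12 h (1.34) and TM 12 h (0.89), and PSMD6 at Cis/TM 12 h (0.61, and 0.58 without Cis/TM 12 h B and 0.50 with each array centred). PSMD14, the deubiquitinase of the lid, and PSMD11 and PSMD12 rose or fell in no comparison with Control, with values between -0.01 and 0.51, inside the fold threshold.

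**Figure D3:**
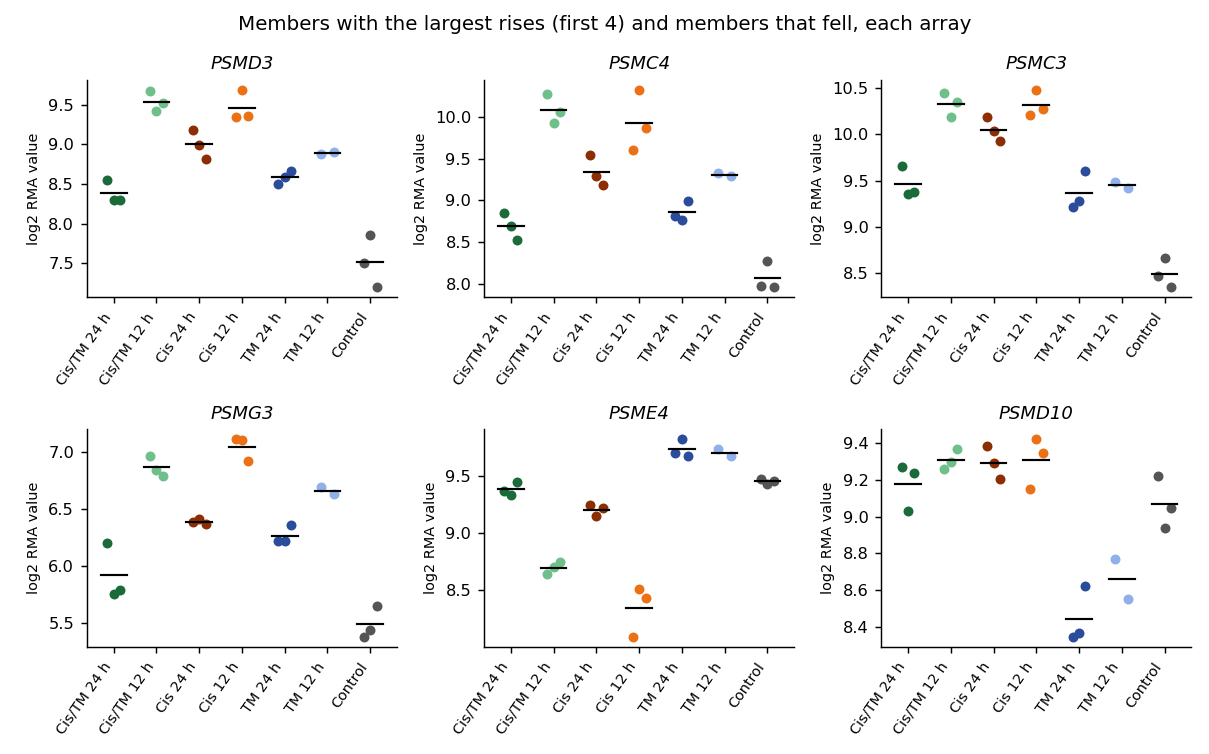
Log2 RMA value of each array (points) and group mean (lines) for PSMD3, PSMC4, PSMC3 and PSMG3, which rose, and for PSME4 and PSMD10, which fell; vertical axes differ and do not start at 0. PSME4 lies between 8.09 and 8.74 in the Cis/TM 12 h and Cis 12 h arrays and between 9.43 and 9.47 in Control, and PSMD10 is lowest in the TM arrays.

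Assembly factors did not follow the subunits as a group. Among core assembly factors, PSMG3 rose and POMP, PSMG1, PSMG2 and PSMG4 did not, with values between -0.30 and 0.30. PSMG3 had 6.20, 5.76 and 5.79 at Cis/TM 24 h, 6.97, 6.84 and 6.79 at Cis/TM 12 h, 6.38, 6.42 and 6.37 at Cis 24 h and 7.11, 7.11 and 6.92 at Cis 12 h. Its TM levels were 6.21, 6.22 and 6.36 at 24 h and 6.69 and 6.63 at 12 h, against 5.37, 5.43 and 5.65 in Control. Every treated array was above Control, and Cis/TM 24 h was the nearest group. The changes were 0.43 at Cis/TM 24 h, 1.38 at Cis/TM 12 h, 0.90 at Cis 24 h, 1.56 at Cis 12 h (adjusted p = 2.23e-09), 0.78 at TM 24 h and 1.17 at TM 12 h, all past the threshold but the first.

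Of the base assembly chaperones PSMD5, PSMD9 and PSMD10, none rose against Control and PSMD10 fell with TM. PSMD10 (gankyrin) had 9.27, 9.03 and 9.24 at Cis/TM 24 h, 9.26, 9.29 and 9.36 at Cis/TM 12 h, 9.38, 9.29 and 9.21 at Cis 24 h and 9.15, 9.42 and 9.35 at Cis 12 h. TM arrays had 8.35, 8.37 and 8.62 at 24 h and 8.77 and 8.55 at 12 h, against 9.22, 8.94 and 9.04 in Control. All 5 TM arrays were below all other arrays. PSMD10 fell by 0.62 at TM 24 h (adjusted p = 0.000626) and had -0.41 at TM 12 h, short of the fold threshold, and it was higher at Cis/TM than at TM by 0.73 at 24 h and 0.64 at 12 h. The fall at TM 24 h came to -0.57 without TM 24 h A, -0.58 without TM 24 h B and -0.55 without Control A, under the fold threshold, and the difference at 12 h came to 0.53 without TM 12 h B.

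Activators open the core without the usual cap, and PSMF1 is its inhibitor protein. PSME4, the activator linked to acetylated histones and DNA repair, was the member with the largest fall. It had 9.36, 9.33 and 9.44 at Cis/TM 24 h, 8.64, 8.70 and 8.74 at Cis/TM 12 h, 9.24, 9.15 and 9.21 at Cis 24 h and 8.09, 8.51 and 8.43 at Cis 12 h. The TM arrays had 9.69, 9.82 and 9.67 at 24 h and 9.73 and 9.67 at 12 h, against 9.47, 9.43 and 9.45 in Control. The cisplatin arrays of 12 h lay below all others and did not overlap each other between Cis/TM and Cis, and the TM arrays were above Control. PSME4 fell by 0.76 at Cis/TM 12 h (adjusted p = 3.94e-06) and by 1.11 at Cis 12 h (2.6e-08), while it had -0.07 at Cis/TM 24 h, -0.25 at Cis 24 h, 0.28 at TM 24 h and 0.25 at TM 12 h. PSME2, a subunit of the interferon-inducible activator, rose at Cis/TM 12 h (0.74), Cis 24 h (0.88) and Cis 12 h (0.95), PSME3, the nuclear activator, at TM 12 h (0.72), and PSME1, the partner of PSME2, in none. PSMF1 rose at Cis/TM 12 h (0.81), Cis 24 h (0.61), Cis 12 h (0.74) and TM 12 h (0.76), and without Control C the last 3 were 0.42, 0.56 and 0.57, under the fold threshold. The Cis 24 h value also missed it with each array centred (0.52).

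No proteasome gene passed the test as higher with TM added to cisplatin. At 12 h, Cis/TM against Cis called 0 of 48 members up and 0 down, as it called 0% of all genes up and 0% down, and 4 members had an unadjusted p under 0.05 by limma. Those 4 were PSME4 (0.35, 95% interval 0.14 to 0.56), PSMC6 (0.24), PSMD11 (0.21) and PSMD1 (0.20), and the 95% intervals of the 48 members lay between -0.46 and 0.56. At 24 h, 0 members rose, when 0.456% of all genes did, and 3 fell, when 1.05% did. PSMC4 fell by 0.66 (adjusted p = 0.0253), PSMD3 by 0.62 (0.0237) and PSMB6 by 0.61 (0.0275), and for each the Cis/TM 24 h arrays were below all Cis 24 h arrays. These calls were close to the threshold. All 3 were lost without Cis 24 h A (-0.55, -0.53 and -0.56 for PSMC4, PSMD3 and PSMB6), without Cis 24 h B (-0.68, -0.62 and -0.60), without Cis/TM 24 h B (-0.66, -0.57 and -0.62) and without Cis/TM 24 h C (-0.57, -0.58 and -0.48), and with each array centred on its median 0 members fell, while without Cis/TM 24 h A there were 6. The median of the members was -0.16 and that of all genes -0.01.

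Adding cisplatin to TM raised 9 members at 12 h, against 6.61% of all genes, and 2 at 24 h, against 3.53%. It lowered 1 member at 12 h, against 6.98% of all genes, and 0 at 24 h, against 2.75%. At 12 h the risers were PSMB9 (1.42), PSMC3IP (1.19), PSMC3 (0.87), PSMD2 (0.87), PSMB8 (0.81), PSMC4 (0.78), PSMB6 (0.67), PSMD3 (0.65) and PSMD10 (0.64), and PSME4 fell by 1.01 (adjusted p = 1.27e-06). PSMB6 lost its call without TM 12 h B (0.61), PSMD10 without it (0.53), and PSMD3 without Cis/TM 12 h A (0.58). At 24 h PSMB9 (1.32) and PSMD10 (0.73) rose, and 14 members had an unadjusted p under 0.05 by limma. At 24 h, PSMD3 had -0.20, PSMC4 -0.17 and PSMC3 0.10, so these leading genes of the comparisons with Control differed little between Cis/TM and TM at that time.

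Of the 3 treatments, Cis/TM had the most members called lower at 24 h than at 12 h. At Cis/TM, 11 members were lower at 24 h than at 12 h, against 8.07% of all genes, and 1 was higher, against 5.67%. PSMC4 fell by 1.40 (adjusted p = 1.99e-06), PSMD3 by 1.16 and PSMB6 by 1.15, followed by PSMB8 (-0.97), PSMG3 (-0.95), PSMB5 (-0.89), PSMC3 (-0.86), PSMD2 (-0.84), PSMD8 (-0.82), PSMB1 (-0.79) and PSMC3IP (-0.73), and PSME4 rose by 0.68. At Cis alone 4 members were lower at 24 h than at 12 h, against 3.42% of all genes, and 1 was higher, against 7.21%. They were PSMB6 (-0.69), PSMG3 (-0.66), PSMB1 (-0.61) and PSMC4 (-0.59), and PSME4 was higher by 0.86. The members' median change against Control was 0.41 at both times of Cis alone. With each array centred, PSMB1 (-0.55) and PSMC4 (-0.53) missed the threshold. PSMC4 in this comparison was -0.39 without Cis 12 h B, -0.57 without Cis 24 h B and -0.51 without Cis 24 h C, and PSMB1 was -0.56 without Cis 12 h B or Cis 24 h B, each short of the threshold. At TM 0 members rose and 0 fell between the times, against 0% and 0.00543% of all genes, and 7 had an unadjusted p under 0.05 by limma, all negative, from -0.56 for PSMB8 to -0.29 for PSMD4. Whether the fall with time differed between treatments was not tested.

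The combination gave less than the sum of the single drugs for many members. The interaction is the log2 change of Cis/TM minus those of Cis and of TM, all against the 3 Control arrays, and a negative value means that the combination stayed below the sum. An upward shift shared by all treated arrays against Control would also make this value negative. The design cannot tell such a shift apart from an interplay of the drugs. At 24 h, 21 of 48 members were called negative, against 11.4% of all genes, and 0 positive, against 5.08%. At 12 h, 18 were called negative, against 6.87%, and 0 positive, against 3.43%. In the upper 25% by level 19.5% of genes were called negative at 24 h and 13.2% at 12 h. Centring each array on its median moved the median interaction of all genes to 0.141 at 24 h and 0.119 at 12 h, against 0.003 and 0.019, and the members called negative then numbered 12 and 11, when 7.87% and 4.76% of all genes were.

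All 7 beta ring genes were among those called negative at both times, from -1.10 for PSMB6 to -0.61 for PSMB7 at 24 h and from -1.03 for PSMB5 to -0.61 for PSMB7 at 12 h. PSMD3 had -1.69 at 24 h (SE 0.21, adjusted p = 1.95e-05), where Cis/TM changed by 0.87 and the single drugs summed to 2.56, and -1.30 at 12 h, where Cis/TM changed by 2.03 and the sum was 3.33. PSMC3 had -1.46 and PSMC4 -1.45 at 24 h. At 12 h PSMG3 had the most negative value of the members (-1.36), ahead of PSMD3, and PSMB8 had -1.12. PSMB9 was at -0.01 at 24 h (95% interval -0.40 to 0.38) and -0.05 at 12 h (-0.46 to 0.36), and PSME4 at -0.10 and 0.10. The plot of the combination against the sum shows the called genes under the line of equal values, with PSMB9 on it. Within the beta ring, PSMB2 at 12 h lost its call without Cis 12 h B (-0.58), PSMB4 at 12 h without Control C (-0.58), PSMB7 at 12 h without Cis 12 h B (-0.56), TM 12 h A (-0.57) or Control C (-0.53), and PSMB7 at 24 h without Cis 24 h A (-0.58), Cis/TM 24 h C (-0.55) or Control C (-0.53). With each array centred, PSMB2, PSMB4 and PSMB7 lost their calls at both times (-0.58 to -0.47) and PSMB1 at 24 h (-0.57).

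**Figure D4:**
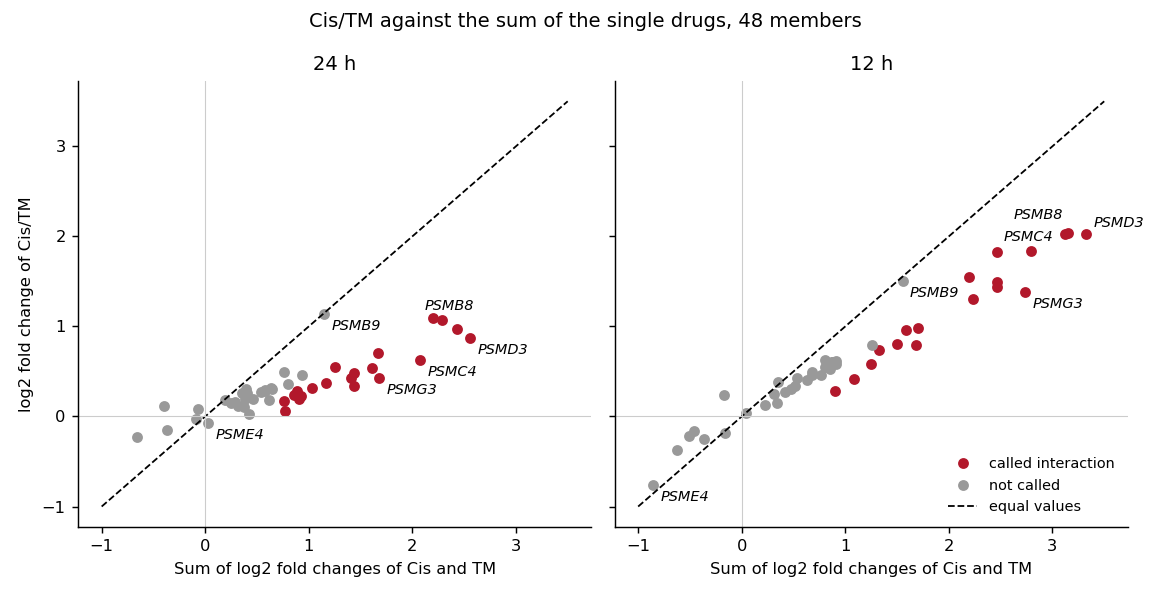
Log2 fold change of Cis/TM against Control (vertical) and the sum of the log2 fold changes of Cis and of TM against Control (horizontal) for the 48 members at 24 h and at 12 h; red points are called interactions and the dashed line marks equal values. Both axes use the same 3 Control arrays. PSMD3 lies at 0.87 against a sum of 2.56 at 24 h, while PSMB9 is on the line.

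The other genes of the pathway came from a list of 31, of which 26 were measured and the rest were not analysed here. Of the 26 measured, 2 rose at Cis/TM 24 h, 8 at Cis/TM 12 h, 7 at Cis 24 h, 7 at Cis 12 h, 2 at TM 24 h and 5 at TM 12 h, when 4.54%, 15.2%, 11.5%, 14.8%, 5.16% and 8.99% of all genes did. At Cis 12 h 3 of the 26 fell, close to the share of all genes that did (10.8%). At Cis/TM 12 h 1 of the 26 fell, beside 8.55% of all genes, and 0 fell in the other comparisons with Control. NFE2L1, the factor that activates proteasome genes when degradation is short, had 8.97, 8.88 and 8.69 at Cis/TM 24 h, 10.04, 9.62 and 9.87 at Cis/TM 12 h, 9.33, 9.32 and 9.14 at Cis 24 h and 9.70, 9.98 and 9.82 at Cis 12 h. Its TM values were 8.83, 8.89 and 9.01 at 24 h and 9.15 and 9.0 at 12 h, against 8.20, 8.41 and 8.09 in Control. Its transcript rose in all 6 comparisons, between 0.61 at Cis/TM 24 h and 1.61 at Cis/TM 12 h, and its protein was not measured. The value at Cis/TM 24 h lay close to the fold threshold. Whether the NFE2L1 calls hold with single arrays left out or with each array centred was not examined. NFE2L2, the related antioxidant factor, was called in no comparison with Control, with values between -0.28 and 0.15. At Cis 12 h its value of -0.28 had an adjusted p of 0.0152 by limma and was short of the fold threshold.

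ADRM1, a ubiquitin receptor of the cap, rose at Cis/TM 12 h (1.64), Cis 24 h (1.14), Cis 12 h (1.86), TM 24 h (0.70) and TM 12 h (0.82). ZFAND2A, a stress-induced protein that binds the proteasome, rose by 0.67 at Cis/TM 24 h, 2.48 at Cis/TM 12 h, 0.83 at Cis 24 h, 2.54 at Cis 12 h and 0.61 at TM 12 h. VCP, the ATPase that extracts ubiquitinated proteins, rose at Cis/TM 12 h (0.89), Cis 24 h (0.66), Cis 12 h (0.74) and TM 12 h (0.66). The rises of ZFAND2A at Cis/TM 24 h and TM 12 h and of VCP at Cis 24 h and TM 12 h lay close to the fold threshold. Calls of these listed genes were not examined with single arrays left out or with each array centred. The genes that fell at Cis 12 h were ECPAS, a proteasome adaptor (-0.98), the ubiquitin-activating enzyme UBA6 (-0.79) and the ubiquitin ligase HUWE1 (-0.69), and ECPAS fell also at Cis/TM 12 h (-0.65).

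Partners of the inducible subunits came from a list of 14, of which 9 were measured and the rest were not analysed here. Of the 9 measured, 3 rose at Cis/TM 24 h, 6 at Cis/TM 12 h, 3 at Cis 24 h, 6 at Cis 12 h, 0 at TM 24 h and 1 at TM 12 h, beside the same shares of all genes, and 0 fell in any of the 6. Besides TAP1, IRF1, an interferon-regulated transcription factor, rose by 0.68 at Cis/TM 24 h, 1.62 at Cis/TM 12 h, 1.26 at Cis 24 h and 1.59 at Cis 12 h and had 0.54 at TM 24 h and 0.41 at TM 12 h. B2M, the light chain of class I molecules, rose at Cis/TM 12 h (0.93) and Cis 12 h (0.98). TAP2, the other transporter subunit, rose in every group but TM 24 h (0.55), and was the list's only riser at TM 12 h (0.68). Calls of this list, such as IRF1 at Cis/TM 24 h near the fold threshold, were likewise not examined with arrays left out or centred.

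NFE2L1 binds antioxidant response elements, and the promoter windows were searched for this motif (TGACNNNGC, both strands). It stood in 13 of the 42 member windows (31.0%) and in 13.6% of the 27305 windows. At Cis/TM 12 h 5 of the 13 members with the motif rose, and 13 of the 29 without it. The stretches around the match are shown for PSMD3 and PSMB3, which rose, and for PSME4 and PSMG1, which did not, with the motif in capitals, 5′ to 3′ on the strand of the gene (RefSeq, GRCh38.p14). They are chr17:39980755-39980793 on the plus strand for PSMD3, chr17:38752622-38752660 on the plus strand for PSMB3, chr2:53971004-53971042 on the minus strand for PSME4 and chr21:39183611-39183649 on the minus strand for PSMG1.
PSMD3: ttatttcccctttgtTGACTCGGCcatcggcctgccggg
PSMB3: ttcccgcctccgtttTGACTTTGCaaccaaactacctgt
PSME4: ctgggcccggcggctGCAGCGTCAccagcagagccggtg
PSMG1: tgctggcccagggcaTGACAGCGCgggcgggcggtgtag

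The match starts at base -37 from the start of PSMD3, -104 of PSMB3, -34 of PSME4 and -183 of PSMG1, and that of PSME4 reads on the opposite strand. PSMB9 also holds a match, at -148 to -140 of the window printed above. The CCAAT box (CCAAT, both strands) stood in 19 of the 42 members (45.2%) and in 35.7% of all windows, and the heat shock motif (GAANNTTC) in 1 (2.38%) and in 6.84%. The interferon-gamma activated site (TTCNNNGAA), chosen after the values were seen, stood in 5 (11.9%) and in 7.89%.

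Among the members, larger changes after cisplatin stood with shorter genes. Over the 48 members, which share arrays, Spearman's rho between gene length and log2 change was -0.32 at Cis/TM 24 h, -0.50 at Cis/TM 12 h, -0.49 at Cis 24 h, -0.54 at Cis 12 h, -0.17 at TM 24 h and -0.22 at TM 12 h, given as a description. Over the 18389 genes with a length, it was -0.10, -0.31, -0.19, -0.39, -0.07 and -0.01 in the same order. Of the 12 shortest members (up to 7.6 kb) 9 rose at Cis 12 h and 0 fell, when 21.1% of all genes of that length rose and 3% fell. Of the 12 longest (from 30.5 kb) 1 rose and 1 fell, when 5.16% of genes that long rose and 21.1% fell. PSME4 (106.9 kb) and PSMD1 (116.0 kb), the 2 members lowest at Cis 12 h, are among the longest, yet PSMA1 (138.8 kb), the longest member, had 0.33 and PSMD14 (103.3 kb) -0.01. PSMB8 (4.0 kb) rose by 1.93 and PSMD3 (17.2 kb) by 1.95. The part of gene length in these changes was not tested.

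**Figure D5:**
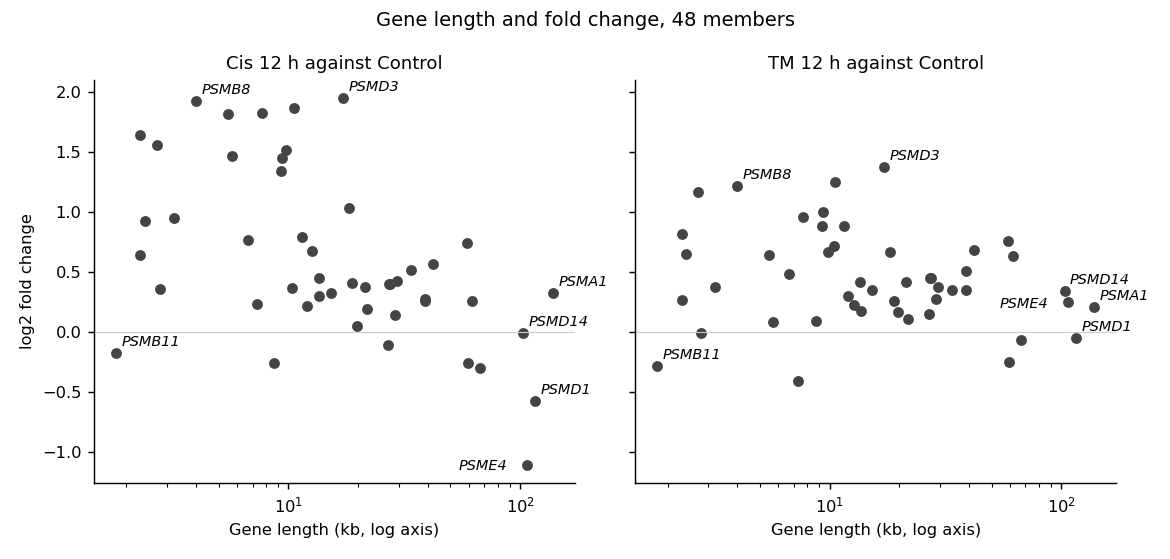
Log2 fold change of each of the 48 members at Cis 12 h (left) and TM 12 h (right) against Control, over the length of the gene in RefSeq (kb, log axis). At Cis 12 h the members under 7.6 kb reach up to 1.93 and PSME4, at 106.9 kb, is at -1.11, while at TM 12 h PSME4 is at 0.25.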

How the data were processed

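Per the labels, the authors made the values with RMA. The deposited log2 levels of the 20 arrays entered the fit unchanged. Labels name Trizol extraction, the methods an RNeasy kit. Transcript clusters with several symbols (1754) were left out, and the cluster with the highest mean stood for its gene, which left 18417 genes. One limma 3.58.1 model in R 4.3.3 with 7 groups (13 residual degrees of freedom) gave all contrasts with eBayes, followed by Benjamini-Hochberg adjustment across the genes of each comparison. Standard errors of members' differences were 0.077 to 0.228, a precision that the number of arrays limits. The fit was tested on simulated data. Nothing states that replicate letters pair arrays, and the main fit did not pair them. Residuals of same-letter arrays correlated at a median of 0.01 over 57 pairs (-0.42 to 0.61), which cannot exclude pairing.

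Members and lists were chosen with earlier results of these data known. Values of every array are given for the 3 members with the largest change in each comparison with Control, the catalytic subunits with their counterparts, up to 3 called members of each other comparison and members called in all 6. Alternatives were median centring, quantile normalization, removal of the trend with level, a filter on low means, the mean of clusters, fits on the compared groups, a trended prior, the replicate block, unadjusted p and leaving out each array. The count without the partner proteins and the interferon and kappa-B motifs were added after the data were seen. RefSeq promoter windows were searched before and just after the start, and only bases before it are printed.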

Additional observations from a re-analysis of the deposited data

Results flagged for a closer look

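Listed with their log2 values are members with a called interaction of the drugs, or a level under 1 treatment that differed between the times. Each was called by a test of the difference in limma (fold change over 1.5 at an adjusted p under 0.05). The interactions at 24 h were PSMD3 -1.69, PSMC3 -1.46, PSMC4 -1.45, PSMG3 -1.25, PSMB8 -1.22, PSMC3IP -1.10, PSMB6 -1.10, PSMB5 -1.07, PSMB3 -0.99, PSMD2 -0.96, PSMD8 -0.96, PSMF1 -0.80, PSMB2 -0.72, PSMB1 -0.71, PSMB10 -0.71, PSMB4 -0.70, PSME3 -0.70, PSMA7 -0.66, PSMB7 -0.61, PSMD11 -0.60 and PSMD9 -0.59. At 12 h they were PSMG3 -1.36, PSMD3 -1.30, PSMB8 -1.12, PSMC4 -1.10, PSMB5 -1.03, PSMB6 -0.97, PSMC3 -0.96, PSMD8 -0.93, PSMB3 -0.89, PSMB1 -0.72, PSMF1 -0.69, PSME3 -0.67, PSMB2 -0.66, PSMD2 -0.65, PSMC3IP -0.64, PSMB4 -0.62, PSMB7 -0.61 and PSME2 -0.59.

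Calls of this set that were lost without 1 array, beside those of the beta ring, were PSMD9 at 24 h (-0.54 and -0.56 without Cis 24 h A and B, -0.58 and -0.47 without TM 24 h B and C, -0.58 and -0.56 without Cis/TM 24 h A and B, -0.52 and -0.56 without Control A and C) and PSMD11 at 24 h (-0.57 without Cis 24 h A, -0.57 without TM 24 h C, -0.54 without Cis/TM 24 h C and -0.53 without Control C). At 12 h PSMD2 lost its call without any array of the 4 groups other than Cis 12 h A and Control B (-0.66 to -0.53). PSME2 lost it without Cis 12 h C (-0.52), TM 12 h A (-0.41), Cis/TM 12 h A, B or C (-0.58, -0.60 and -0.58), Control A (-0.54) or Control B (-0.56). PSMC3IP lost it without TM 12 h B (-0.59) or Control A (-0.56), and PSMF1 without TM 12 h A (-0.67), TM 12 h B (-0.71) or Control C (-0.51).

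Between times, Cis 24 h against Cis 12 h gave PSME4 0.86, PSMB6 -0.69, PSMG3 -0.66, PSMB1 -0.61 and PSMC4 -0.59. Cis/TM 24 h against Cis/TM 12 h gave PSME4 0.68, PSMC4 -1.40, PSMD3 -1.16, PSMB6 -1.15, PSMB8 -0.97, PSMG3 -0.95, PSMB5 -0.89, PSMC3 -0.86, PSMD2 -0.84, PSMD8 -0.82, PSMB1 -0.79 and PSMC3IP -0.73. No group had enough arrays for a test of single arrays that stand apart.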

How the results depend on the processing

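Over the 162 called values of members in the 15 comparisons, none changed sign under any alternative. The calls kept were 128 with each array centred on its median, 129 with quantile normalization and 134 with the trend removed, and at least 156 with the compared groups alone, the replicate block, a trended prior, the filter on low means, the mean of clusters or the unadjusted p.

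Centred on the median, members raised at TM 24 h numbered 5, members lowered at Cis 12 h 2, at Cis 24 h against Cis 12 h 2 and at Cis/TM 24 h against Cis 24 h 0. Interactions called negative were 12 at 24 h and 11 at 12 h, and 1 at 24 h was called positive. Quantile normalization gave 10 raised at TM 12 h, 5 at TM 24 h, 2 lowered at Cis 12 h, 1 at Cis/TM 24 h against Cis 24 h and 1 positive interaction at 24 h. Removing the trend gave 11 raised at TM 12 h, 5 at TM 24 h, 1 lowered at Cis/TM 24 h against Cis 24 h and 1 positive interaction at 24 h. PSMC4 at Cis/TM 24 h missed the fold threshold with quantile normalization (0.48) and with the trend removed (0.51). The causes were not tested.

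Without 1 array, members lowered ran between 1 and 2 at Cis 12 h, 0 and 1 at TM 24 h, 2 and 4 at Cis 24 h against Cis 12 h, and 0 and 6 at Cis/TM 24 h against Cis 24 h, and positive interactions at 24 h between 0 and 1. Members raised ran between 19 and 24 at Cis/TM 12 h and between 6 and 10 at TM 24 h. Negative interactions ran between 18 and 21 at 24 h. At 12 h they ran between 14 and 18 with arrays other than those of TM 12 h left out. The fall at TM 24 h was lost without TM 24 h A, TM 24 h B or Control A, and the second fall at Cis 12 h appeared without Cis 12 h B, Cis 12 h C or Control A. The replicate block, which adds the letter of each array, gave 15 negative interactions at 12 h, against 18, and left the other counts as they were. With 3 arrays a group (2 at TM 12 h) small differences could not be called, and values near background carry no order.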
